A study of Homo sapiens with 8 samples.

Results

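Secreted factors were searched for by gene symbol in the ribosome profiles of amino acid-starved HEK293T cells, namely the stanniocalcins STC2 and STC1, the growth factor VEGFA, the hormone GDF15, and adrenomedullin (ADM) with its relative ADM2. They were chosen by their log2 ratios of footprint density, starved over sufficient, in these same libraries, so those values are given as a description, without a test. Of the 6 symbols, 4 (STC2, GDF15, ADM2 and ADM) matched a listed transcript, among 12235 genes in the whole series. STC1 and VEGFA are not analysed here. HEK293T is an established line of human embryonic kidney cells that carries the SV40 large T antigen. Cells were kept in sufficient medium (Suff) or overnight in media from which arginine (Arg-), leucine (Leu-) or methionine (Met-) was left out, all made with dialyzed serum and with cysteine and histidine supplied. One series of 4 libraries came from cells pre-treated with cycloheximide (CHX), which arrests elongating ribosomes, and another series of 4 from cells without it. There was 1 library per condition, so every interval below is a 95% interval that covers the counting of reads only, and no value carries a replicate error.

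When amino acids are short, cells reduce initiation on most mRNAs and translate the transcription factor ATF4, which activates a set of genes known as the integrated stress response. Some products of this response are secreted. STC2 is a glycoprotein that blocks the protease PAPP-A and thereby holds back the release of insulin-like growth factors. GDF15, a distant member of the TGF-beta family, acts on the receptor GFRAL in the hindbrain and lowers food intake. ADM and ADM2 (intermedin) are vasodilator peptides that share receptors built from CALCRL and a RAMP protein, and ADM is also a target of the hypoxia-inducible factors.

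Footprints are counted on coding sequences, and the start codons of the 4 coding sequences are shown because each footprint value begins there. Each line below gives 10 bases before and 10 after the start codon, which is in capitals, from the GENCODE release 44 transcript that carried the footprints (GRCh38).
STC2: accaagaaccATGtgtgccgagc
GDF15: ctgcacagccATGcccgggcaag
ADM2: cccgcccgccATGgcccggatcc
ADM: cgcagccgggATGaagctggttt

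All 4 have A or G at the third base before the start codon, as do 85.6% of the 11338 mRNAs compared. ADM2 is the one with G directly after it, which 53.0% of the mRNAs have. The STC2 transcript (ENST00000265087, chr5:173314723-173328414, minus strand, 4 exons) has a 5′ leader of 221 bases with 1 upstream ATG, gcctggtcacATGctctccggag. It opens a reading frame of 11 codons that ends at a TAA, 156 bases before the STC2 start codon. The GDF15 (chr19:18386158-18389176), ADM2 (chr22:50481556-50486440) and ADM (chr11:10305084-10307355) transcripts, all on the plus strand, have leaders of 32, 292 and 617 bases without an ATG. At least 1 upstream ATG was present in 45.7% of 11349 mRNAs.

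Libraries held 538222 to 6434043 reads on coding sequences with cycloheximide and 1302523 to 3139745 without it, and the Met- library with cycloheximide was the shallowest. Markers of the line were present without cycloheximide, 6 of 7 being listed in all 4 libraries with a summed density of 403 to 802 RPKM. Of 11 markers of blood, liver, endothelium, fibroblasts and muscle, 1 was listed in all 4, and their sum was 1.84 to 4.19 RPKM.

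STC2 carried more footprints in every starved library than in the sufficient library of its series. With cycloheximide its density was 50.4 RPKM in sufficient medium (reads per coding length, scaled to the library total, interval 41.7 to 60.5). It was 322 RPKM under arginine deficiency, 429 under leucine deficiency and 476 under methionine deficiency. Without cycloheximide it was 79.2 RPKM in sufficient medium (69.2 to 90.2), 425 under arginine deficiency, 477 under leucine deficiency and 312 under methionine deficiency. In neither series did the interval of a starved library reach that of the sufficient one, the lowest starved bound being 281 RPKM (Met- without cycloheximide). The reads behind these values, with cycloheximide, were 117 in sufficient medium, 1461 in Arg-, 2500 in Leu- and 232 in Met- medium. Without it they were 226, 622, 649 and 369 in the same order. Within the sufficient library without cycloheximide, STC2 lay above 80.5% of the listed genes, and in the starved libraries above 94.6% to 96.5%.

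**Figure D1:**
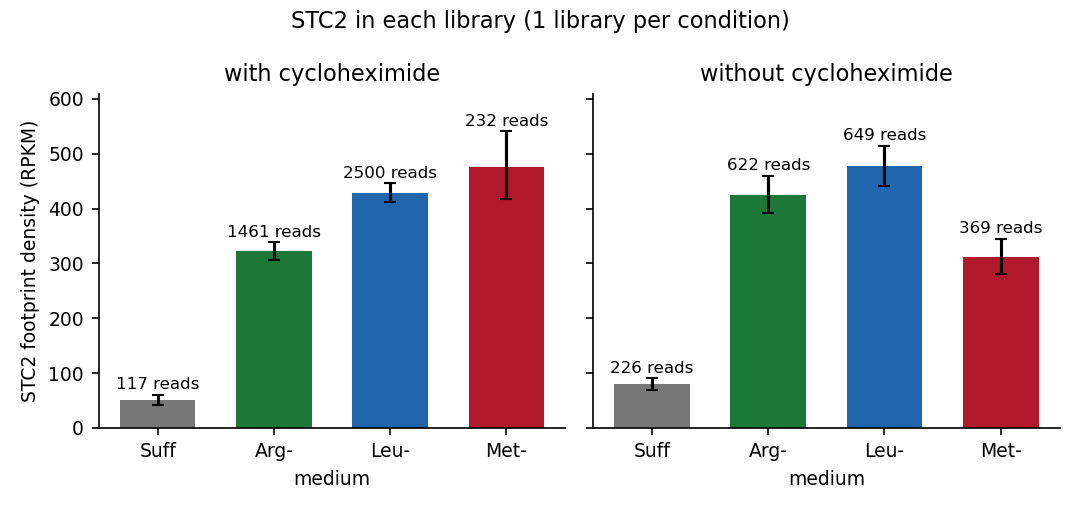
STC2 footprint density in RPKM (vertical axis, from 0) in each medium, with cycloheximide (left) and without it (right). Bars are single libraries, error bars are exact 95% Poisson intervals, and the number of reads stands above each bar. Every starved library lies above the sufficient one, 50.4 RPKM on the left and 79.2 on the right.

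As a ratio of reads per library total, STC2 was 6.38-fold higher in Arg- than in Suff with cycloheximide (exact conditional interval 5.28 to 7.77). It was 8.50-fold higher in Leu- (7.06 to 10.3) and 9.43-fold higher in Met- (7.52 to 11.9). Without cycloheximide the folds were 5.36 in Arg- (4.60 to 6.28), 6.02 in Leu- (5.17 to 7.04) and 3.94 in Met- (3.33 to 4.67). The 3 folds of a series share its sufficient library, and a low value there would raise all 3. Each library pools the cells of a culture and no mRNA level was measured beside it. The number of expressing cells and the amount of RNA per cell therefore cannot be told apart, nor can more mRNA and more ribosomes per mRNA.

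The position of STC2 among all genes was taken from log2((RPKM + 1)/(RPKM in Suff + 1)), over genes with a mean RPKM of at least 10 in the pair. Without cycloheximide STC2 stood at 2.41 in Arg-, with 38 of 7466 genes above it, at 2.58 in Leu-, with 20 of 7565 above it, and at 1.96 in Met-, with 178 of 7897 above it. The medians of all these genes were -0.02, 0.14 and 0.31. With cycloheximide the log2 ratios of STC2 were 2.65, 3.06 and 3.21. There, genes with fewer than 64 reads are not listed and count as 0, which places many genes at extreme ratios. Over the genes listed in both libraries, 32 of 5074 stood above STC2 in Arg-, 2 of 5208 in Leu- and 38 of 1890 in Met-. The median log2 ratio of those 1890 genes was 0.89, as the shallow Met- library lists the genes with a large share of its reads.

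STC2 was the only member that passed the minimum RPKM with cycloheximide and it was at least 2-fold higher in all 3 comparisons, as were 29.7% of all genes in Arg-, 26.3% in Leu- and 21% in Met-. Without cycloheximide 2 members passed, STC2 and ADM. Of these 2, STC2 was at least 2-fold higher in each comparison, against 8.33% of all genes in Arg-, 6.89% in Leu- and 20.2% in Met-. The members were searched with these ratios known, so nothing is read from the shares. Of the 1795 genes listed in all 8 libraries, 20 were at least 2-fold higher in all 6 comparisons, and STC2 was among them. The others included ATF4, SESN2 (a leucine-binding inhibitor of mTORC1 signalling) and ASNS (asparagine synthetase).

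**Figure D2:**
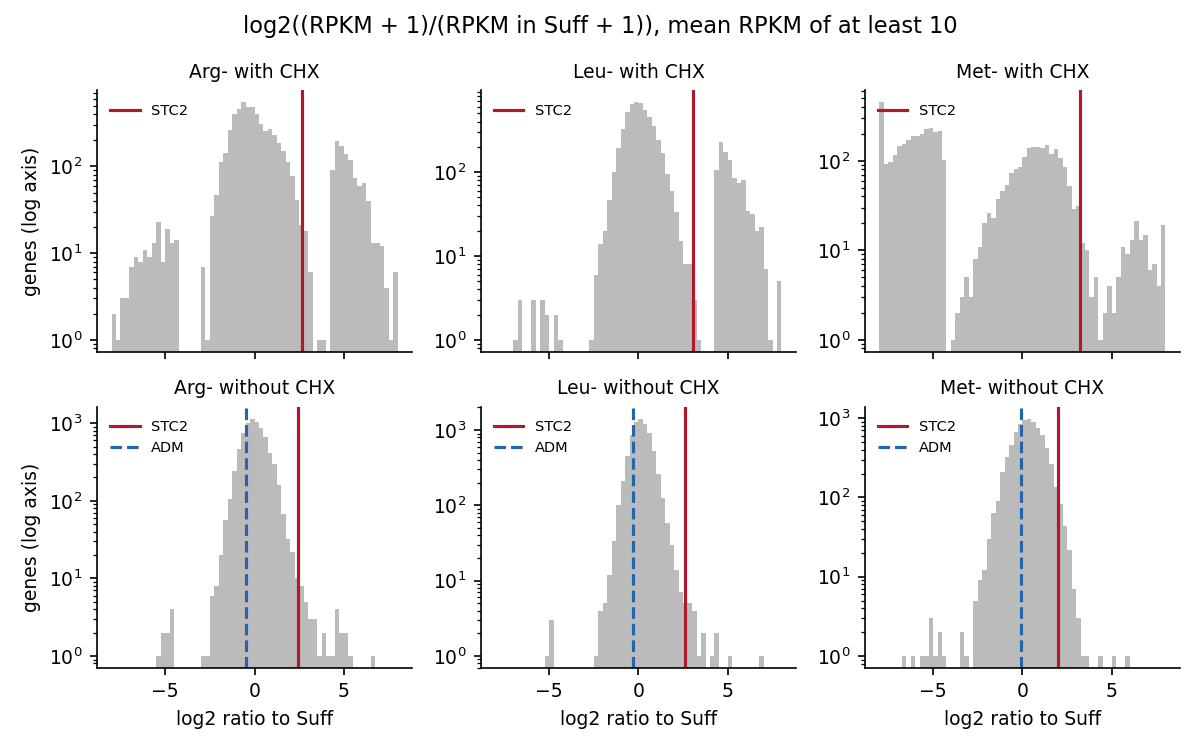
Distribution of log2 ratios to sufficient medium over all genes with a mean RPKM of at least 10 (horizontal axis; values beyond 8 in either direction are drawn at the edge), with the number of genes on a log axis. The red line is STC2, from 1.96 (Met- without cycloheximide) to 3.21 (Met- with cycloheximide), and the dashed blue line is ADM, between -0.48 and -0.09. The separate groups of genes at either side are those listed in 1 library of the pair and counted as 0 in the other.

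As reads per library total, the starvations also differed in STC2, and their order was not the same in the series. With cycloheximide the order was Arg-, Leu-, Met-. STC2 in Leu- was 1.33-fold that in Arg- (1.25 to 1.42). STC2 in Met- was 1.48-fold that in Arg- (1.28 to 1.70), while Met- and Leu- did not differ beyond counting error (1.11-fold, 0.966 to 1.27). Without cycloheximide Met- was lowest, at 0.734 of Arg- (0.643 to 0.836) and 0.653 of Leu- (0.573 to 0.744). Leu- was 1.12-fold Arg- there, with an interval from about 1 to 1.26. Relative to the median gene listed in both libraries, STC2 was lower in Met- than in Arg- and Leu- in both series (values below). With 1 library each, the spread between cultures is unknown.

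ADM showed no difference beyond counting error between the starved libraries and Suff without cycloheximide, at 13 to 36 reads per library. It was listed at 20.5 RPKM in sufficient medium (36 reads, interval 14.4 to 28.4), 14.5 in Arg- (13 reads, 7.70 to 24.7), 16.8 in Leu- (14 reads, 9.16 to 28.1) and 19.3 in Met- (14 reads, 10.5 to 32.3). All 4 intervals overlap. Relative to Suff the read ratios were 0.704 in Arg- (0.343 to 1.36), 0.816 in Leu- (0.406 to 1.55) and 0.937 in Met- (0.467 to 1.78). Each interval includes no difference. By counting error alone, a 2-fold rise lies outside each of them and a 2-fold fall lies inside. Smaller differences in either direction were not detectable at this depth. Although it was grouped with stress-induced factors, ADM was not listed higher in any of the 3 starved libraries without cycloheximide. With cycloheximide ADM was not listed. Whether its transcript was counted in that series is not known. If it was, the highest density ADM could have had while unlisted was 17.6 RPKM in Leu- and up to 211 in Met-. These limits are close to or above its level in the other series.

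ADM2 was listed in 2 of the 8 libraries, at 19.4 RPKM in Arg- (14 reads, interval 10.6 to 32.6) and 13.5 in Leu- (9 reads, 6.15 to 25.5), both without cycloheximide. In Suff and Met- without cycloheximide it had at most 4 reads, the most an unlisted transcript can have there, which is at most 2.85 RPKM in Suff and 6.87 in Met-. Against that limit in Suff, ADM2 was at least 6.82-fold higher in Arg-, and with 4 reads in Suff the counting interval would be 2.14 to 28.5. In Leu- it was at least 4.72-fold higher, with an interval of 1.32 to 21.0. Between Arg- and Leu- ADM2 did not differ beyond counting error (Leu- over Arg- 0.692, 0.264 to 1.72), and the limit in Met- lies within counting error of both.

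GDF15 was the weakest of the 4, listed at 4.69 RPKM in Arg- (7 reads, interval 1.88 to 9.66) and 4.32 in Leu- (6 reads, 1.59 to 9.41) without cycloheximide. In Suff it had at most 1.37 RPKM and in Met- at most 3.31. Against the limit in Suff it was at least 3.41-fold higher in Arg- and 3.15-fold in Leu-, but with 4 reads in Suff the intervals would be 0.867 to 15.9 and 0.746 to 15.2. Such a difference is not separable from counting error at this depth. With cycloheximide neither ADM2 nor GDF15 was listed. If their transcripts were counted there, which is not known, an unlisted ADM2 could have had 22.1 to 264 RPKM and an unlisted GDF15 10.6 to 127. These limits lie above the levels of the other series, so those libraries do not bear on either gene.

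**Figure D3:**
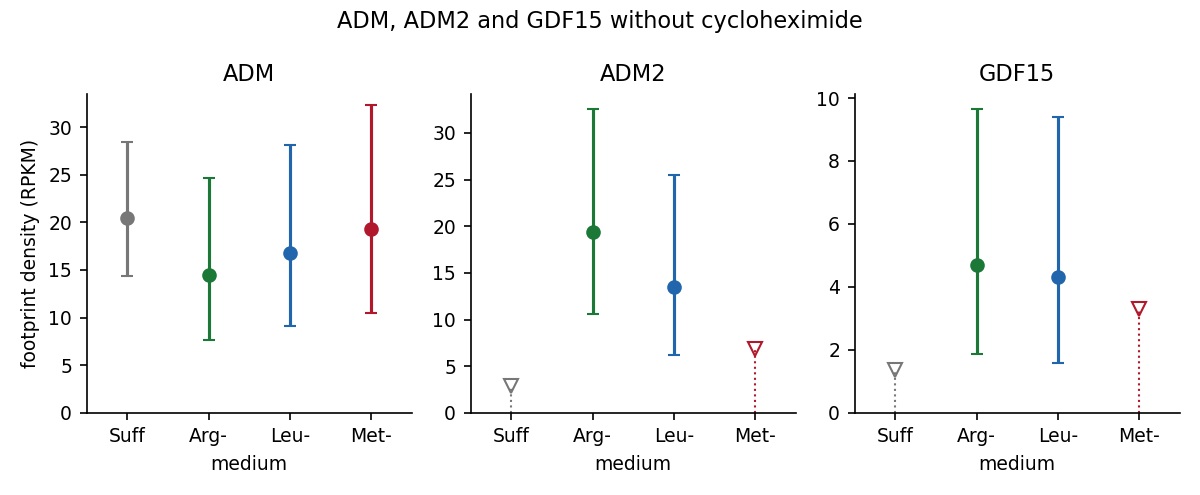
Footprint density in RPKM of ADM, ADM2 and GDF15 in each medium without cycloheximide. Points are single libraries with exact 95% Poisson intervals, and open triangles mark the highest density an unlisted transcript could have had (4 reads). ADM overlaps in all 4 media, while ADM2 and GDF15 have points in Arg- and Leu- and limits in Suff and Met-.

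The proteins differ in how much of each withheld amino acid they hold. Methionine makes up 1.66% of STC2, 1.62% of GDF15, 2.03% of ADM2 and 2.70% of ADM (5, 5, 3 and 5 residues), against a median of 2.12% over 11349 mRNAs. Arginine makes up 6.95% of STC2, and 11.4% of GDF15, 12.2% of ADM2 and 10.8% of ADM. The last 3 shares are higher than in 97.6%, 98.3% and 96.8% of mRNAs. Leucine makes up 8.61% of STC2 and 14.9% of GDF15, against a median of 9.75%.

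Promoter letters were searched in the 250 bases before the RefSeq start site (GRCh38.p14), on both strands and with overlapping matches counted. TGATGNAA, a core of the element that ATF4 binds with a C/EBP partner, has no match in any of the 4 and is found in 3.1% of 35116 promoters. GCGTG, one form of the core bound by hypoxia-inducible factors, has 3 matches in STC2, 1 in ADM2 and 1 in ADM, and is found in 32.2% of promoters. ACGTG, the other form, has none in the 4 and is found in 18.5%. CCAAT has 1 match each in STC2 and GDF15 (32.0% of promoters) and TATAAA 1 each in ADM and GDF15 (10.7%). The windows below show STC2, the member with the largest values, and ADM, with the match in capitals on the gene's strand.
STC2 GCGTG, chr5:173328622-173328646, minus strand: gcacgcaaacGCGTGgccgccgcca
STC2 CCAAT read on the opposite strand, chr5:173328500-173328524, minus strand: ggggtctcggATTGGtccagccgcc
ADM GCGTG, chr11:10304962-10304986, plus strand: gcaggagcgcGCGTGgctgaggaaa

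Genes of the integrated stress response stood higher beside STC2. In a list of 20 such genes that does not hold STC2, 16 of the 17 that passed the minimum RPKM were at least 2-fold higher in Arg- without cycloheximide, 16 of 17 in Leu- and 17 of 18 in Met-, and 0 were 2-fold lower. Over all genes 6.05%, 2.12% and 5.47% were 2-fold lower, and the shares of higher genes stand above. The list medians were 2.54, 2.13 and 1.73 on the log2 scale, and STC2 lay at 2.41, 2.58 and 1.96. ATF4 itself was 251 RPKM in Suff, 700 in Arg-, 1098 in Leu- and 662 in Met-. DDIT3 (CHOP), its partner in stress transcription, was 4.40, 101, 110 and 26.5 RPKM, and TRIB3, a pseudokinase that restrains both, 9.35, 162, 125 and 27.2. Other genes of the list had another order of the starvations. DDIT4, an inhibitor of mTORC1, was 184 RPKM in Suff, 798 in Arg-, 699 in Leu- and 1124 in Met-, and CEBPG, a binding partner of ATF4, 75.9, 201, 243 and 420, both named after their values were seen. ASNS was 68.0 RPKM in Suff and 689, 607 and 392 in the starved libraries, SESN2 53.4 and 237, 236 and 187, and ATF3 47.8 and 434, 228 and 107. VLDLR, a lipoprotein receptor, did not reach the minimum (0.972, 5.92, 7.13 and 1.76 RPKM), and CHAC1 had no listed transcript. With cycloheximide, over list genes listed in both libraries, 9 of 12 were at least 2-fold higher in Arg-, 11 of 12 in Leu- and 9 of 9 in Met-. Of all genes listed in both, 16.6%, 12.1% and 46.7% were. In Met- a gene enters that count only with at least 64 reads in the shallow library, which selects genes high there. ATF3, CEBPG and TRIB3, listed in Suff, were unlisted in Met- and are left out, so nothing is read from 9 of 9.

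By the Euclidean distance over the 3 log2 ratios without cycloheximide, the genes most like STC2 among 7795 were CARS1 (distance 0.43), SLC6A9 (0.52) and SESN2 (0.56). CARS1, cysteinyl-tRNA synthetase, had log2 ratios of 2.22 in Arg-, 2.30 in Leu- and 2.24 in Met-. SLC6A9, a glycine transporter, was 4.96 RPKM in Suff and 22.8, 28.3 and 19.5 in the starved libraries. The genes most like ADM were NPM3 (0.01), CHUK (0.05) and CCNQ (0.05), in a dense part of the distribution where many genes lie close.

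Another list, of targets of the hypoxia-inducible factors together with the factor subunit HIF1A, holds ADM. Of 13 that passed without cycloheximide, ADM included, 1 was at least 2-fold higher and 2 lower in Arg-, 0 and 1 in Leu-, and 1 and 0 in Met-. The higher gene was HIF1A and the lower ones EGLN1 and EGLN3 in Arg- and EGLN3 in Leu-, the EGLN genes being named after their values were seen. Among all genes 8.33%, 6.89% and 20.2% were at least 2-fold higher and 6.05%, 2.12% and 5.47% lower. The list had medians of -0.36, 0.10 and 0.53. HIF1A, the oxygen-regulated subunit, was 16.2 RPKM in Suff and 41.1, 33.2 and 40.9 in the starved libraries. SLC2A1, the glucose transporter, was 32.3, 55.4, 34.8 and 56.1 RPKM, PDK1 16.5, 23.1, 18.5 and 30.8, P4HA1 19.6, 26.7, 25.4 and 13.9, and BNIP3 84.5, 48.6, 58.2 and 54.1. CA9 had no listed transcript. With cycloheximide, over the genes listed in both libraries, 2 of 7 were at least 2-fold higher and 2 of 7 lower in Arg-, 2 and 1 of 7 in Leu-, and 1 and 0 of 2 in Met-. Of all genes listed in both, 19.7% in Arg-, 7.28% in Leu- and 9.79% in Met- were at least 2-fold lower, and 16.6%, 12.1% and 46.7% higher. The higher list genes were the glycolytic enzymes PGK1 (75.6 RPKM in Suff and 318, 266 and 328 in the starved libraries) and, in Arg- and Leu-, LDHA. LDHA was 189 RPKM in Suff, 731 in Arg- and 622 in Leu-. PGK1 was not higher without cycloheximide, at 564 RPKM in Suff and 437, 603 and 462 in Arg-, Leu- and Met-. LDHA was not listed in that series. The lower list genes were BNIP3 and, in Arg-, EGLN1. PGK1, LDHA and EGLN1 are named after their values were seen.

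Of 12 receptors and binding partners of these factors, 6 were listed in any library. KDR, CALCRL, RAMP3, GFRAL, PAPPA and PAPPA2 were not. An unlisted transcript that was counted in a series can have up to 63 reads with cycloheximide and 4 without it. Some genes were unlisted throughout a series though well expressed in the other. LDHA was at 189 to 731 RPKM with cycloheximide and unlisted without it. SPCS2 was at 239 to 306 RPKM without cycloheximide and unlisted with it. The absence of these receptors and partners therefore sets no limit on their reads. RAMP1, an accessory chain of CALCRL, was 57.0 RPKM in Suff without cycloheximide and 40.3, 38.9 and 27.5 in Arg-, Leu- and Met-. RAMP2, which makes CALCRL a receptor for ADM, was 13.5, 11.4, 7.38 and 15.6 RPKM. Among VEGF receptors, NRP1 was 5.06 RPKM in Suff, with log2 ratios of 1.63, 1.21 and 1.27 in the starved libraries, FLT1 was 1.43 and 6.18, 5.49 and 3.63, and NRP2 was 3.76 and 7.11, 5.50 and 8.51. RET, the signalling partner of GFRAL, was at 1.24 RPKM in Suff and 0.928 in Arg-. With cycloheximide RAMP1 was 100 RPKM in Suff and 48.0 in Leu-, and it was not listed in Arg- or Met-.

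Of 14 relatives in the same hormone families, 9 were listed. CALCB, which encodes a calcitonin gene-related peptide, was 74.1 RPKM in Suff without cycloheximide, 234 in Arg-, 152 in Leu- and 82.8 in Met-, and with cycloheximide 88.7, 123 and 170 in Suff, Arg- and Leu-. INHBE, an activin chain, was not listed in Suff and was at 22.4, 12.7 and 5.10 RPKM in Arg-, Leu- and Met-. VEGFB was 7.66, 13.9, 7.49 and 7.38 RPKM, BMP4 7.27, 5.06, 9.80 and 16.3, and TGFB1 14.9, 11.6, 6.26 and 11.8. PGF was 8.13 RPKM in Suff, 6.02 in Leu- and 11.5 in Met-. VEGFC (3.66 RPKM) and TGFB2 (2.89) were listed in Met- alone, and INHBB (1.82) in Suff alone.

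Of 14 genes that process secreted precursors, 0 of the 11 that passed in Arg-, 0 of 11 in Leu- and 0 of 13 in Met- were 2-fold higher or lower without cycloheximide, with medians of -0.42, -0.06 and -0.12. Among all genes 8.33%, 6.89% and 20.2% were at least 2-fold higher and 6.05%, 2.12% and 5.47% lower. With so few genes on the list, nothing is read from these counts. FURIN, a protease that cuts many hormone precursors, was 12.4 RPKM in Suff and 7.55, 6.16 and 10.3 in the starved libraries. PAM, which amidates adrenomedullin, was 11.3, 9.34, 17.8 and 17.3 RPKM. With cycloheximide, over the genes listed in both libraries, SEC61A1 was at least 2-fold higher and FURIN lower in Arg- (1 and 1 of 11), SEC61B and SPCS1 lower in Leu- (2 of 11), and PCSK6 higher and SPCS1 lower in Met- (1 and 1 of 4). Among all genes listed in both, 16.6%, 12.1% and 46.7% were at least 2-fold higher and 19.7%, 7.28% and 9.79% lower. Of the genes of the unfolded protein response without cycloheximide, 3 of 11 were at least 2-fold higher in Arg- (DNAJB9, HERPUD1 and ATF6), 3 of 11 in Leu- (HERPUD1, SEL1L and ATF6) and 2 of 11 in Met- (SEL1L and ATF6). These counts stand beside 8.33%, 6.89% and 20.2% of all genes. With cycloheximide, over the genes listed in both libraries, 5 of 9 were higher in Arg- (HSPA5, HSP90B1, XBP1, HERPUD1 and PDIA4), and XBP1 and PDIA4 in Leu- (2 of 9) and in Met- (2 of 5), beside 16.6%, 12.1% and 46.7% of all genes. SEL1L, ATF6, HSP90B1 and PDIA4 are named after their values were seen. PDIA4 was not higher without cycloheximide, at 171 RPKM in Suff and 169, 153 and 168 in Arg-, Leu- and Met-. HSP90B1 was 140 RPKM in Suff there and 249, 197 and 181 in the starved libraries, less than 2-fold higher. HSPA5 (BiP), the main chaperone of the endoplasmic reticulum, was, without cycloheximide, 137, 216, 107 and 198 RPKM, DNAJB9 16.1, 36.0, 27.8 and 30.8, and HERPUD1 45.0, 141, 126 and 67.2. XBP1 was listed with cycloheximide alone, at 85.3 RPKM in Suff and 376, 350 and 313 in the starved libraries.

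**Figure D4:**
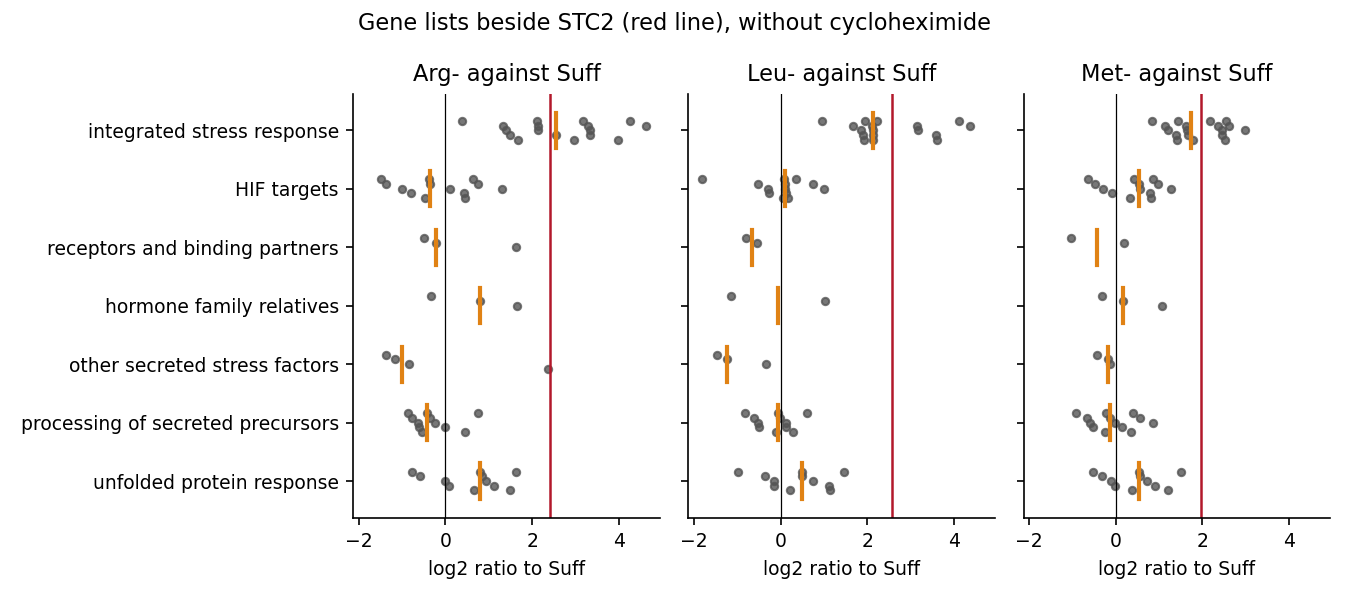
Log2 ratios to sufficient medium without cycloheximide (horizontal axis) of the genes of 7 lists that passed the minimum RPKM and were listed in both libraries. Dots are genes, orange bars list medians over these genes, and the red line is STC2 (2.41, 2.58 and 1.96). The integrated stress response list lies around STC2, while the other lists have medians nearer 0.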

How the data were processed

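Per the labels and methods, the authors treated pooled ribosome fractions with RNase I, trimmed and size-selected the footprints, mapped them with Bowtie, allowing no mismatch, to GRCh38 transcripts (annotation release not given in the sources used here) and kept unique reads. Each deposited value is the RPKM of an Ensembl transcript. File names of the series without cycloheximide point to removal of duplicates, which the methods do not give. The coding length behind the RPKM held the stop codon in that series and not in the other. Transcripts per gene also differed, with 5637 for 5466 genes in Suff with cycloheximide and 11439 for 11437 in Suff without it. These differences, the listing minimum and the drug cannot be told apart between the series.

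Transcripts were matched to GENCODE release 44 (96.7% to 97.1% per library), and the highest transcript of each gene was kept. Reads were recovered from whole steps of RPKM times coding length (tolerance 0.01 of a step). Between 97.1% and 97.4% of matched values were whole. The fewest reads of a listed transcript were 64 with cycloheximide and 5 without it. Poisson intervals and conditional Clopper-Pearson intervals of read ratios are exact, at 95%, and cover counting error only, since reads without molecular identifiers are not independent molecules. With 1 library per condition no test was run. Log2 ratios used a pseudocount of 1, understate changes of low genes, and a call is a 2-fold difference at a mean RPKM of at least 10.

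Members, gene lists and named genes were chosen with earlier results of these data known. Named genes were the 6 symbols, a fixed selection from each list, all receptors, all listed relatives and, for each member listed throughout the series without cycloheximide, the 3 nearest genes. The calls and the recovery of reads were tested on simulated data. Alternatives were a pseudocount of 0.1, no minimum, a minimum of 50, summed transcripts, the same transcript in both libraries, centred ratios, genes listed in both libraries and recovered reads. Centring on genes listed in both libraries was chosen after seeing the data. Calculations used scipy 1.17.1, pandas 2.3.3 and numpy 2.4.6 under Python 3.11.15, and figures matplotlib 3.10.9.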

Additional observations from a re-analysis of the deposited data

Results flagged for a closer look

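As a ratio of reads per library total, the direction of STC2 in Met- against the other starvations was not the same with and without cycloheximide. Met- was 1.48-fold Arg- with cycloheximide (interval 1.28 to 1.70) and 0.734 without it (0.643 to 0.836). Met- was 1.11-fold Leu- with cycloheximide, with an interval of 0.966 to 1.27 that includes no difference, and 0.653 without it (0.573 to 0.744). Leu- was higher than Arg- in each (1.33-fold and 1.12-fold). The difference between the series was not tested, as each value rests on 1 library per condition. Over genes listed in both libraries, the median log2 ratio of Met- to Arg- was 1.05 with cycloheximide and 0.29 without it. Relative to those medians STC2 stood at -0.48 and -0.74. Against Leu- the medians were 0.84 and 0.15, and STC2 stood at -0.70 and -0.76. Relative to the medians STC2 was lower in Met- in both series. With cycloheximide the Met- library was the shallowest, at 538222 reads, and its part in the result was not tested. Genes listed in both there entered through a large share of that library, so those medians carry the selection.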

How the results depend on the processing

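The number of members at least 2-fold higher was 1 in every comparison and under every alternative, except that without a minimum RPKM it was 3 in Arg- and 3 in Leu- without cycloheximide, since ADM2 and GDF15, unlisted in Suff and counted as 0, then entered. That count could hardly change, as 1 member had a value with cycloheximide and, under a minimum, at most 2 without it. STC2 was also chosen by its ratio. Of 78 recomputed ratios of single members, 74 stayed within their counting interval, 4 left it and 0 reversed. Many of these could not differ, since STC2 and ADM have 1 listed transcript each. Summed transcripts, the same transcript, another minimum and listing in both libraries all return the same ratio. All 4 that left the interval were STC2 in Met-. Centring on all genes tested gave a log2 ratio of 8.05 with cycloheximide, where the median gene was unlisted in Met-, and 1.65 without it. Centring on genes listed in both libraries gave 2.32 and 1.65. With cycloheximide the genes so used entered through a large share of the shallow Met- library, so 2.32 carries that selection. The ADM log2 ratio ranged from -0.51 to -0.09 over all alternatives and comparisons. No paired analysis was possible because each condition had 1 library and the labels number no replicates. A model with the series as a block was not run, since the members were chosen by these ratios. Depth limits ADM, ADM2 and GDF15, which rest on 6 to 36 reads.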

Other observations

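A further list of 15 genes held other secreted stress factors and SDF2L1, which is part of a chaperone complex. From this list, MANF, CRELD2 and SDF2L1 were lower in Arg- and Leu- than in Suff in both series. STC2 was higher. MANF, a neurotrophic factor, was 937 RPKM in Suff with cycloheximide and 240 in Arg-, 390 in Leu- and 579 in Met-. Without cycloheximide it was 279, 157, 221 and 256 RPKM in the same order. CRELD2 was 132 RPKM in Suff with cycloheximide, 44.7 in Arg-, 61.7 in Leu- and 142 in Met-, and SDF2L1 was 265, 48.8, 71.0 and 179. CRELD2 was 70.6 RPKM in Suff without cycloheximide, 30.8 in Arg-, 29.3 in Leu- and 62.2 in Met-, and SDF2L1 was 186, 70.8, 67.2 and 137. CCN1, on the same list, was higher without cycloheximide, at 5.56 RPKM in Suff, 32.5 in Arg-, 12.8 in Leu- and 8.71 in Met-. CRELD2, SDF2L1 and CCN1 were chosen after their values were seen. Of the 15 genes, 7 were listed in any library. In Arg- without cycloheximide, 1 of the 4 that passed was at least 2-fold higher and 2 lower (8.33% and 6.05% of all genes). In Leu- it was 0 and 2 of 3 (6.89% and 2.12%), and in Met- 0 and 0 of 3 (20.2% and 5.47%). With cycloheximide, of those listed in both libraries, 3 of 3 were lower in Arg- and in Leu- and 0 of 3 in Met-. Of all genes listed in both, 19.7%, 7.28% and 9.79% were lower. FGF21 was listed in Met- without cycloheximide alone, at 6.09 RPKM, and ANGPTL4 and CXCL8 had no listed transcript. These values come from 1 library per condition and were not tested.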
